A study of Homo sapiens with 9 samples.

Results

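The mRNAs of 10 genes that carry glucose into the cell and break it down to lactate were measured in the human line OVCAR4, long used as a model of high-grade serous ovarian carcinoma, across a PRMT5 inhibitor and a platinum-resistance comparison. The members are SLC2A1, SLC2A3, HK1, HK2, PFKP, ALDOA, PGK1, ENO1, PKM and LDHA. They were taken by symbol out of 61487 gene rows, and all 10 were found by their Ensembl ID. The set was chosen with earlier results of these data known. The 9 libraries fall into 3 groups of 3. Inhibitor-treated libraries are platinum-resistant (Pt-resistant) OVCAR4 cells given EPZ015666, a small-molecule inhibitor of the arginine methyltransferase PRMT5, at 5 μM for 5 days. Pt-resistant libraries are the same resistant cells given DMSO, the solvent. Naive libraries are OVCAR4 cells without acquired platinum resistance, also given DMSO. All 9 carry the genotype label WT. Pt-resistant cells were derived from the naive line by continuous platinum exposure, and it is not stated whether they are a single clone. Replicates were separate wells, so every p-value here reflects well-to-well spread, which may be technical.

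Glucose enters a cell through facilitative transporters of the SLC2A (GLUT) family and is trapped inside by hexokinases, which phosphorylate it. Phosphofructokinase commits the sugar to glycolysis, aldolase splits it, and phosphoglycerate kinase and pyruvate kinase make ATP on the way to pyruvate. Lactate dehydrogenase turns pyruvate to lactate and restores the NAD+ that glycolysis consumes. Many tumors take up glucose and release lactate even where oxygen is present, and several of these genes are textbook targets of HIF-1 and MYC.

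Library totals ran from 14320929 to 19114811 counts, and 14630 genes passed the filter on low counts. The members SLC2A1, HK1, HK2, PFKP, ALDOA, PGK1, ENO1, PKM and LDHA passed, 9 of 10, and SLC2A3 did not. Levels are in CPM, the count of a gene scaled to a fixed library total after TMM scaling. They are relative to all RNA of a library, so less mRNA of a gene per cell cannot be told apart from fewer cells that express it. Of 8 serous epithelial markers, 7 were tested, with summed levels of 3222 to 3293 CPM in inhibitor-treated, 3935 to 4045 CPM in Pt-resistant and 4003 to 4279 CPM in naive libraries. WT1, a defining marker of that lineage, was close to 0 with means of 0.223, 0.318 and 0.25 CPM in the same order. KRT7 held the largest part of the sum and was higher in Pt-resistant than in naive cells (0.27, log2). By the edgeR test given below, EPCAM (-0.65), KRT18 (-0.71), KRT8 (-0.36) and PAX8 (-0.22) were lower there, and MUC16 and SOX17 were not called. With the inhibitor 2 of the 7 were higher and 4 lower. Of 14 markers of immune, endothelial and stromal cells, 9 were tested. The whole list summed to 104 to 120.3 CPM in inhibitor-treated, 138.2 to 143 in Pt-resistant and 146.8 to 165.2 in naive libraries. Most of that sum came from PECAM1 and CDH5. Other genes of the list ran against that sum, either with the inhibitor or, for RGS5, between Pt-resistant and naive cells only. With the inhibitor COL1A1 (10.2 against 3.83 CPM), ACTA2 (2.18 against 0.796 CPM), CD14 (1.24 against 0.268 CPM) and PTPRC (53 counts over the inhibitor-treated against 2 over the Pt-resistant libraries) were higher, and RGS5, a pericyte gene, stood at 5.40 CPM in inhibitor-treated, 8.99 in Pt-resistant and 1.61 in naive cells. These 5 were picked after their values were seen. CD14 and PTPRC had few counts and passed the filter on them only through the inhibitor-treated libraries. No weight is put on the size of these 2 changes. HBB had no count in any library, and CD3E and DCN had at most 3 counts over a group. The part of either list in the results below was not tested.

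PRMT5 inhibition changed every tested member, in both directions. Genes of the later steps, LDHA, PKM, PGK1 and ENO1, rose with the inhibitor, as did HK1 and PFKP, while the main transporter SLC2A1 and the genes HK2 and ALDOA fell. LDHA had the largest change, 2.31-fold higher, followed by PKM at 1.66-fold and HK1 at 1.60-fold. By edgeR's quasi-likelihood test, with p adjusted after Benjamini and Hochberg and a threshold of 0.05, 6 of 9 members were higher and 3 lower in this comparison, where over all 14630 genes 31.9% were higher and 30.5% lower, 62.4% in all. The median log2 fold change of the members was 0.33, against 0.01 over all genes tested. The changes of HK2, PGK1 and ENO1 were small, while that of ALDOA (-0.52, log2) was not but had the widest SE of the members. These 4 lost their call when a change of more than 1.2-fold was required, which left 4 higher and 1 lower. The shares of all genes above are without that minimum and cannot be set beside these counts.

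Acquired platinum resistance was accompanied by fewer changes among the same genes. HK1 and LDHA were lower in Pt-resistant than in naive cells and HK2 was higher, while SLC2A1, PFKP, ALDOA, PGK1, ENO1 and PKM did not pass the test. That is 1 of 9 higher and 2 of 9 lower, against 29.8% higher and 29.4% lower over all genes, 59.1% in all. The median log2 fold change of the members was -0.12, against 0.01 over all genes. The count of higher members was 2 without naive replicate 1, where ALDOA passed, 2 without Pt-resistant replicate 1, where PGK1 passed, and 0 when edgeR's test required more than 1.2-fold, where HK2 had an adjusted p of 0.0814 and was the 1 member higher by unadjusted p. By DESeq2 and limma-voom, without that minimum, 1 member was higher as well. Both comparisons use the same 3 Pt-resistant libraries, so their fold changes are not independent and are given side by side.

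**Figure D1:**
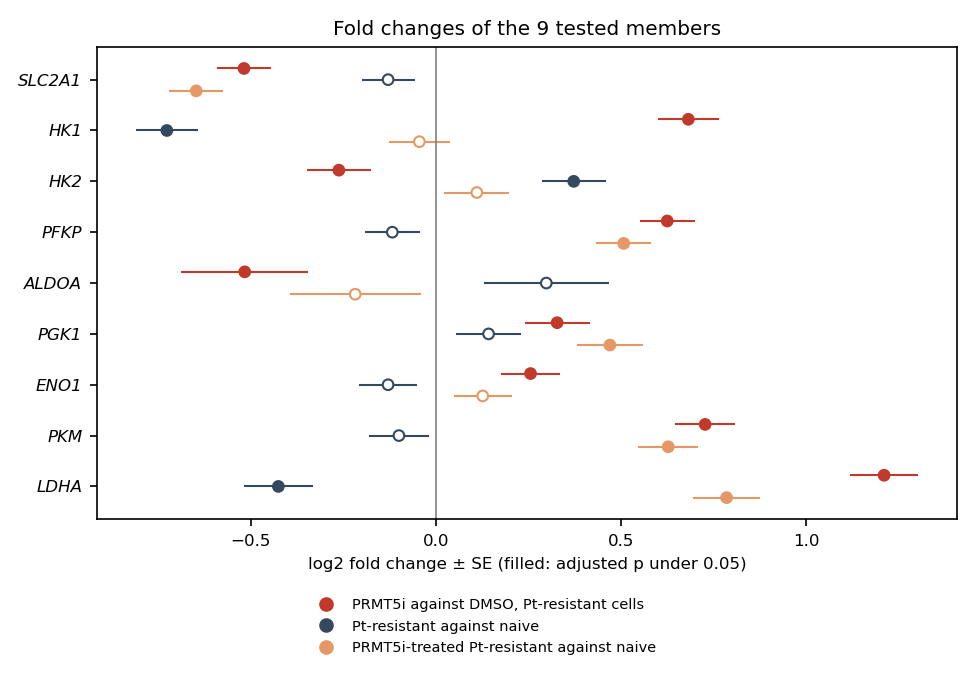
Log2 fold changes with standard errors of the 9 tested members (rows) for PRMT5 inhibitor (PRMT5i) over DMSO in Pt-resistant cells, Pt-resistant over naive cells, and inhibitor-treated over naive cells, where filled points passed the test. All 9 points of the inhibitor comparison are filled, with LDHA farthest to the right at 1.21 and SLC2A1 and ALDOA farthest to the left at -0.52.

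SLC2A1 encodes GLUT1, the widely expressed basal glucose transporter. Its mRNA stood at 107, 110 and 109 CPM in the inhibitor-treated libraries, against 158, 161 and 148 CPM in the Pt-resistant libraries. The naive libraries held 169, 174 and 167 CPM, and none of the 3 groups overlapped another. SLC2A1 fell by 0.52 ± 0.07 with the inhibitor (log2, SE; adjusted p = 1.36e-06, edgeR). Pt-resistant cells differed from naive cells by -0.13 ± 0.07 (log2, SE; adjusted p = 0.126, edgeR).

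SLC2A3 encodes GLUT3, a high-affinity transporter best known from neurons. It had 2, 2 and 0 counts in the inhibitor-treated libraries, 12, 3 and 7 in the Pt-resistant libraries and 5, 4 and 4 in the naive libraries. These 4, 22 and 13 counts over a group correspond to 0.0822, 0.402 and 0.271 CPM, where a floor of 3 counts over a group stands at 0.0617, 0.0549 and 0.0625 CPM. Every inhibitor-treated library had fewer counts than every Pt-resistant library, but the gene was too low to test at this depth. SLC2A1 supplied nearly all reads of this transporter pair in each group.

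HK1 and HK2 encode the hexokinases that bind the outer mitochondrial membrane, HK1 being the form of most tissues and HK2 the form typical of muscle, fat and many tumors. HK1 stood at 159, 164 and 178 CPM in inhibitor-treated libraries, against 115, 103 and 94.8 CPM in Pt-resistant libraries. Naive libraries held 178, 179 and 160 CPM of HK1, overlapping the inhibitor-treated ones and above all Pt-resistant ones. HK1 rose with the inhibitor by 0.68 ± 0.08 (log2, SE; adjusted p = 1.87e-07, edgeR), and was lower in Pt-resistant than in naive cells at -0.73 ± 0.08 (SE; adjusted p = 7.97e-08, edgeR).

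HK2 ran the other way. It stood at 72.2, 78.8 and 74.9 CPM in inhibitor-treated libraries, against 101, 81.9 and 88.2 CPM in Pt-resistant libraries. Naive libraries held 69.5, 75.7 and 64.1 CPM. Pt-resistant libraries were thus above all others, by a narrow gap to the highest inhibitor-treated one. HK2 was higher in Pt-resistant than in naive cells at 0.37 ± 0.09 (log2, SE; adjusted p = 7.64e-04, edgeR) and fell with the inhibitor by 0.26 ± 0.09 (log2, SE; adjusted p = 0.0114, edgeR). That second call rested on single libraries, since leaving out Pt-resistant replicate 1 gave -0.17 (adjusted p = 0.0999, edgeR) and leaving out inhibitor-treated replicate 1 gave -0.23 (adjusted p = 0.0537, edgeR).

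Because both hexokinases were counted in the same library, their ratio does not depend on how libraries are scaled. HK2 counts were 0.453, 0.482 and 0.421 of HK1 counts in inhibitor-treated libraries, against 0.878, 0.797 and 0.93 in Pt-resistant libraries. In naive libraries they were 0.391, 0.422 and 0.401 of HK1 counts. The Pt-resistant libraries stood apart from both other groups, and the ratio was 2.14-fold higher there than in naive cells and 0.521 times as high with the inhibitor. The exact permutation test gave p = 0.1 for each of these (two-sided), the smallest that 3 against 3 libraries allow, with an adjusted p of 0.113 over the 9 ratio tests made. Inhibitor-treated and naive libraries overlapped, with an exact permutation p of 0.2.

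A hexokinase outside the 10 genes, HKDC1, stood above both. HKDC1, a hexokinase domain gene next to HK1 on the same chromosome in human, stood at 434, 481 and 438 CPM in inhibitor-treated libraries, against 1060, 908.5 and 824.5 CPM in Pt-resistant libraries. Naive libraries held 322, 368 and 292 CPM. HKDC1 fell with the inhibitor at -1.05 ± 0.09 (log2, SE; adjusted p = 1.56e-09, edgeR) and was higher in Pt-resistant than in naive cells at 1.51 ± 0.10 (log2, SE; adjusted p = 3.74e-12, edgeR). Per kilobase of transcript, HKDC1 averaged 122 CPM in inhibitor-treated, 252 CPM in Pt-resistant and 88.7 CPM in naive cells, where HK1 averaged 46.3, 28.9 and 47.8 CPM per kilobase and HK2 13.1, 15.7 and 12.1 CPM per kilobase. The order HKDC1, HK1, HK2 was thus the same in the 3 groups.

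PFKP encodes the platelet form of phosphofructokinase, the enzyme of the committed step. It stood at 166, 171 and 175 CPM in inhibitor-treated libraries, against 113, 108 and 111 CPM in Pt-resistant libraries. Naive libraries held 129, 114 and 118 CPM. The inhibitor-treated libraries lay above all others, and PFKP rose with the inhibitor by 0.62 ± 0.07 (log2, SE; adjusted p = 1.23e-07, edgeR). Pt-resistant cells differed from naive cells by -0.12 ± 0.07 (log2, SE; adjusted p = 0.182, edgeR).

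The liver form PFKL moved opposite to PFKP with the inhibitor. PFKL stood at 72.1, 80.3 and 71.6 CPM in inhibitor-treated libraries, against 148, 147 and 147.5 CPM in Pt-resistant libraries, and fell by 0.98 ± 0.08 (log2, SE; adjusted p = 9.08e-11, edgeR). Naive libraries held 192, 183 and 184 CPM of PFKL, above all others. PFKP counts were 2.3, 2.13 and 2.45 times PFKL counts in inhibitor-treated libraries, against 0.763, 0.739 and 0.75 times in Pt-resistant libraries. In naive libraries the ratio was 0.67, 0.621 and 0.64. The ratio in inhibitor-treated cells was 3.05-fold that of Pt-resistant cells and 3.56-fold that of naive cells. Per kilobase of transcript, PFKL averaged 25.6 CPM in inhibitor-treated, 50.6 CPM in Pt-resistant and 64.0 CPM in naive cells, below PFKP (64.3 CPM per kilobase) in inhibitor-treated cells and above it (41.7 and 45.2 CPM per kilobase) in the other groups. Each of the 3 comparisons of this ratio reached the smallest exact permutation p of 0.1, with an adjusted p of 0.113. The muscle form PFKM was lower with the inhibitor at -0.36 ± 0.08 (log2, SE).

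**Figure D2:**
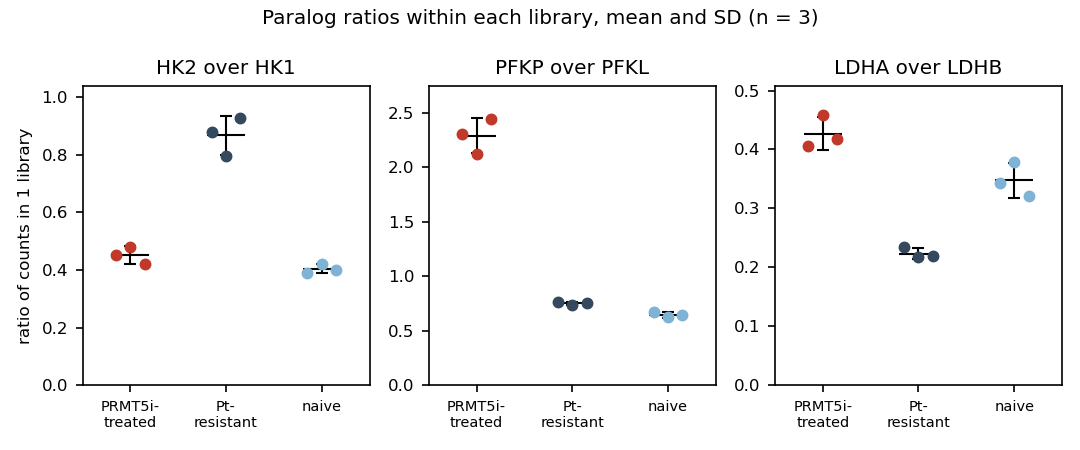
Ratio of the counts of related genes within each library, for HK2 over HK1, PFKP over PFKL and LDHA over LDHB, with points for libraries and bars for the mean and SD of 3 libraries in inhibitor-treated (PRMT5i-treated) Pt-resistant, Pt-resistant and naive cells. PFKP over PFKL lies between 2.13 and 2.45 in inhibitor-treated cells, above all other libraries, and HK2 over HK1 is highest in Pt-resistant cells.

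ALDOA encodes the aldolase form of muscle and most other tissues. Its counted level was low for so widely used an enzyme, at 7.28, 7.48 and 7.09 CPM in inhibitor-treated libraries, against 11.2, 11.2 and 8.93 CPM in Pt-resistant libraries. Naive libraries held 11.7, 6.46 and 6.99 CPM, with replicate 1 apart from the others. ALDOA fell with the inhibitor at -0.52 ± 0.17 (log2, SE; adjusted p = 0.0115, edgeR) and did not pass between Pt-resistant and naive cells (0.30 ± 0.17, adjusted p = 0.132), although it did without naive replicate 1 (0.63, adjusted p = 0.00134). In GENCODE 29, 42.3% of the exonic bases of ALDOA are shared on the same strand with the gene AC093512.2, which had 2 to 28 counts per library in the deposited table and was thus part of the annotation used. A read that falls on both genes is counted for neither in STAR's gene counting, so the ALDOA values leave out such reads and are uncertain.

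ALDOC, the brain form of aldolase, changed more than ALDOA and in the other direction. It stood at 32.7, 30.1 and 32.3 CPM in inhibitor-treated libraries, against 10.3, 9.26 and 11.4 CPM in Pt-resistant libraries, 3.08-fold higher with the inhibitor (adjusted p = 2.59e-11, edgeR). Naive libraries held 29.4, 21.8 and 23.9 CPM, and ALDOC was lower in Pt-resistant than in naive cells at -1.28 ± 0.12 (log2, SE). Per kilobase it averaged 16.0 CPM in inhibitor-treated, 5.20 CPM in Pt-resistant and 12.6 CPM in naive cells.

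PGK1 encodes phosphoglycerate kinase, the first ATP-producing step. It stood at 988, 908 and 1052 CPM in inhibitor-treated libraries, against 691, 832 and 826 CPM in Pt-resistant libraries. Naive libraries held 678, 671 and 779 CPM, which overlapped the Pt-resistant ones. PGK1 rose with the inhibitor by 0.33 ± 0.09 (log2, SE; adjusted p = 0.00249, edgeR), and the difference between Pt-resistant and naive cells was 0.14 ± 0.09 (SE; adjusted p = 0.171, edgeR). It became 0.22 with an adjusted p of 0.0416 without Pt-resistant replicate 1, the lowest of that group.

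ENO1 encodes alpha-enolase, which makes phosphoenolpyruvate. It stood at 3198, 2962 and 3144 CPM in inhibitor-treated libraries, against 2555, 2623 and 2615 CPM in Pt-resistant libraries. Naive libraries held 2747, 2723 and 3052 CPM, between and partly within the inhibitor-treated range. ENO1 rose with the inhibitor by 0.26 ± 0.08 (log2, SE; adjusted p = 0.00714, edgeR), a change of 1.19-fold, and Pt-resistant cells differed from naive cells by -0.13 ± 0.08 (SE; adjusted p = 0.166, edgeR).

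PKM encodes the pyruvate kinases PKM1 and PKM2, which arise by alternative splicing and which gene counts do not separate. PKM stood at 1369, 1305 and 1430 CPM in inhibitor-treated libraries, against 842, 812 and 825 CPM in Pt-resistant libraries. Naive libraries held 971, 796 and 889 CPM, overlapping the Pt-resistant range and below every inhibitor-treated library. PKM rose with the inhibitor by 0.73 ± 0.08 (log2, SE; adjusted p = 4.67e-08, edgeR), and Pt-resistant cells differed from naive cells by -0.10 ± 0.08 (SE; adjusted p = 0.3, edgeR). Its part of all reads of the 10 genes averaged 22.6% in inhibitor-treated cells, 17.6% in Pt-resistant cells and 17.7% in naive cells.

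LDHA encodes the muscle-type subunit of lactate dehydrogenase, the form linked to lactate production. It stood at 66.6, 60.3 and 69.3 CPM in inhibitor-treated libraries, against 24.8, 30.6 and 29.2 CPM in Pt-resistant libraries. Naive libraries held 37.7, 36.4 and 39.8 CPM, between the other groups and overlapping neither. LDHA rose with the inhibitor by 1.21 ± 0.09 (log2, SE; adjusted p = 7.06e-11, edgeR) and was lower in Pt-resistant than in naive cells at -0.43 ± 0.09 (SE; adjusted p = 4.03e-04, edgeR).

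LDHB, the heart-type subunit, was the more abundant form in every group, at 100.1 CPM per kilobase in inhibitor-treated, 82.5 in Pt-resistant and 71.5 in naive cells. LDHB averaged 154 ± 19.4 CPM in inhibitor-treated, 127 ± 18.4 CPM in Pt-resistant and 110 ± 14.1 CPM in naive cells (SD, n = 3). It was higher with the inhibitor at 0.28 ± 0.11 (log2, SE; adjusted p = 0.0262, edgeR), with groups that overlapped, a call lost without Pt-resistant replicate 1 or inhibitor-treated replicates 1 or 3 (adjusted p = 0.159, 0.103 and 0.122, edgeR). Between Pt-resistant and naive cells LDHB did not pass with all libraries, but did without Pt-resistant replicate 1 (0.31, adjusted p = 0.011, edgeR) or naive replicate 3 (0.30, adjusted p = 0.0296, edgeR). LDHA counts were 0.406, 0.458 and 0.417 of LDHB counts in inhibitor-treated libraries, against 0.234, 0.217 and 0.219 in Pt-resistant libraries and 0.344, 0.379 and 0.321 in naive libraries. No library of one group fell within another group's range, and each of the 3 comparisons had an exact permutation p of 0.1 (adjusted 0.113). GENCODE 29 lists 6 named pseudogenes of LDHA, 5 of PKM and 4 of ENO1. Reads that map equally well to such copies are left out of the counts, so the absolute levels of these genes are uncertain. LDHB has 3 named pseudogenes and shares 33.4% of its exonic bases on the same strand with AC010197.2 in GENCODE 29, so its level, and its place above LDHA, are uncertain in the same way. LDHA itself was counted at a low level for so widely used an enzyme, which is subject to the same doubt, and the cause was not tested. In GENCODE 29 LDHA shares 0.0% of its exonic bases with another gene on the same strand, but the annotation used is not stated.

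**Figure D3:**
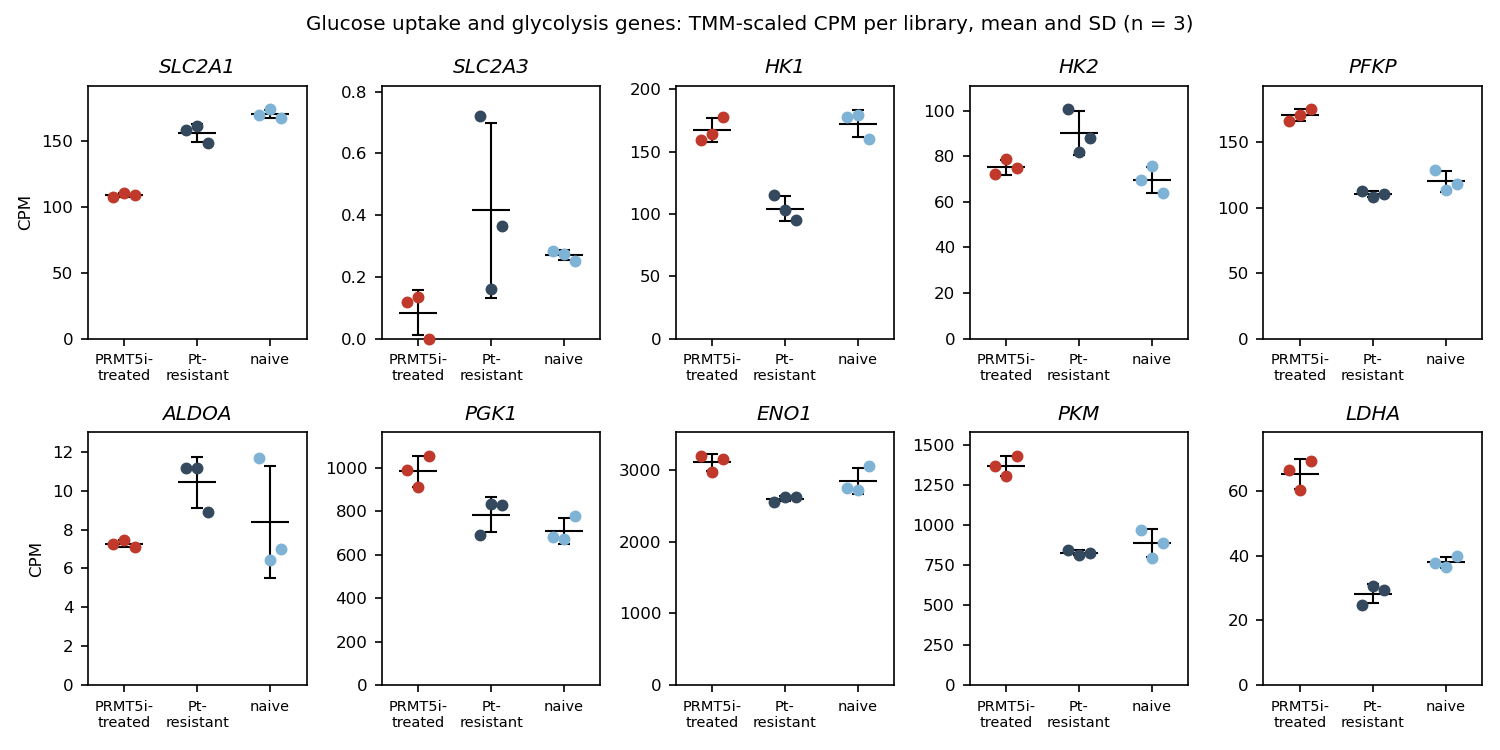
TMM-scaled CPM of each of the 10 genes, with 1 point per library and bars for the mean and SD of 3 libraries, in inhibitor-treated (PRMT5i-treated) Pt-resistant, Pt-resistant and naive cells, each panel with its own axis from 0. LDHA, PKM and PFKP are highest in the 3 inhibitor-treated libraries and SLC2A1 is lowest there, while HK1 is lowest and HK2 highest in the Pt-resistant libraries.

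Per kilobase of transcript the members spanned a wide range. ENO1 averaged 1322 CPM per kilobase in inhibitor-treated, 1108 in Pt-resistant and 1211 in naive cells, and PKM followed at 503.5, 304 and 326 CPM per kilobase. PGK1 stood at 201, 160 and 145 CPM per kilobase, and PFKP at 64.3, 41.7 and 45.2 CPM per kilobase. In Pt-resistant cells SLC2A1 (42.4 CPM per kilobase) and PFKP were nearly equal, and in naive cells SLC2A1 (46.4), HK1 (47.8) and PFKP lay close together. LDHA averaged 27.1, 11.7 and 15.7 CPM per kilobase, HK2 13.1, 15.7 and 12.1, and ALDOA 4.54, 6.51 and 5.23, the lowest of the tested members in each group. LDHA was thus above HK2 per kilobase in inhibitor-treated and naive cells and below it in Pt-resistant cells.

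Inhibitor-treated cells were also set against naive cells. LDHA (0.79 ± 0.09), PKM (0.63 ± 0.08), PFKP (0.51 ± 0.07) and PGK1 (0.47 ± 0.09) were higher in inhibitor-treated cells and SLC2A1 (-0.65 ± 0.07) was lower, each a log2 fold change with its SE. HK1 (-0.04 ± 0.08), HK2 (0.11 ± 0.09), ALDOA (-0.22 ± 0.18) and ENO1 (0.13 ± 0.08) did not pass. That is 4 of 9 higher and 1 lower by edgeR, against 32.2% and 31.2% of all genes, 63.4% in all. In inhibitor-treated cells HK1, HK2, ALDOA and ENO1 thus had levels that overlapped those of naive cells. The levels of SLC2A1, PFKP, PGK1, PKM and LDHA did not overlap, and the share of all genes without overlap was not counted.

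Taken as a sum, reads of the 10 genes made up 0.591% ± 0.026 of all counts in inhibitor-treated libraries, against 0.471% ± 0.0067 in Pt-resistant and 0.511% ± 0.023 in naive libraries (SD, n = 3). The groups did not overlap, and the exact permutation p was 0.1 for each pair, the smallest possible. ENO1 alone held 51.3% of these reads in inhibitor-treated, 55.2% in Pt-resistant and 56.6% in naive libraries, so the sum mostly follows ENO1, PKM and PGK1. Mitochondrially encoded mRNAs were also lowest in Pt-resistant libraries, at 7.37% of counts in inhibitor-treated, 4.80% in Pt-resistant and 7.12% in naive libraries. Unlike the sum, they overlapped between inhibitor-treated and naive libraries (exact permutation p = 0.8). Outside mitochondrial genes the sum was 0.669%, 0.518% and 0.569% of counts in the same order, so the gap between inhibitor-treated and Pt-resistant cells was larger without them, at 0.15 against 0.12 percentage points.

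Promoter sequences are shown for the 4 members with a single annotated start (PGK1, ENO1 and PKM, which rose with the inhibitor, and SLC2A1, which fell) and for the first of 2 starts of LDHA, the member with the largest change. Sequences are 250 bases before the annotated start from RefSeq (GRCh38.p14), 5′ to 3′ on the strand of the gene. Capitals mark ACGTG or GCGTG on either strand (CACGT or CACGC as printed), the core bound by HIF-1, and CACGTG, the E-box core bound by MYC, contains ACGTG on both strands. The windows are LDHA at chr11:18394313-18394562 (plus strand), PGK1 at chrX:78103998-78104247 (plus), ENO1 at chr1:8878687-8878936 (minus), PKM at chr15:72231191-72231440 (minus) and SLC2A1 at chr1:42958869-42959118 (minus).
LDHA: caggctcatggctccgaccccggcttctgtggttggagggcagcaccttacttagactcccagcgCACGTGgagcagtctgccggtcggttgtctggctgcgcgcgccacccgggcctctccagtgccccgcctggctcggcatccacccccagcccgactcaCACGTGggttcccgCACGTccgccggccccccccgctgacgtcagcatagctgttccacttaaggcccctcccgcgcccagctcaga
PGK1: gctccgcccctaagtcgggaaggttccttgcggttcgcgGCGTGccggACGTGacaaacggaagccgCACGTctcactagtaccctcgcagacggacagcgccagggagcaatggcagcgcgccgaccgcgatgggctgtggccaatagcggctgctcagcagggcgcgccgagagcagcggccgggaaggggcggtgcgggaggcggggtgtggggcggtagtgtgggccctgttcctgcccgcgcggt
ENO1: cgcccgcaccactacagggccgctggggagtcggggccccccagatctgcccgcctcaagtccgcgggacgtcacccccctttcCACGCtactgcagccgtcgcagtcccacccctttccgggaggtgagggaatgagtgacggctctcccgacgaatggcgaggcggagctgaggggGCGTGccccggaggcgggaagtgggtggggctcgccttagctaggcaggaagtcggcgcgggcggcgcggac
PKM: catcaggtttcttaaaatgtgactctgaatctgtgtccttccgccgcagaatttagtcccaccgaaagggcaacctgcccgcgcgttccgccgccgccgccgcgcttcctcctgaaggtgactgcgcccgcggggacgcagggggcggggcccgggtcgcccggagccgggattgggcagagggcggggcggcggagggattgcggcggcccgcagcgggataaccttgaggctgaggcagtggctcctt
SLC2A1: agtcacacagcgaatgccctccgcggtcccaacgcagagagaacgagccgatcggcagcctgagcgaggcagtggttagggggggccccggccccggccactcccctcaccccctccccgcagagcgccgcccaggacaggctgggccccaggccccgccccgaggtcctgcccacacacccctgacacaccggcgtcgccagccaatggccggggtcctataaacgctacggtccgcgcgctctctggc
The LDHA stretch held CACGTG at 2 places and a further ACGTG on the reverse strand, PGK1 held 1 GCGTG and 2 ACGTG, ENO1 held GCGTG at 2 places, and PKM and SLC2A1 held neither core. In these 250 bases, cores were thus present in LDHA, PGK1 and ENO1 and absent in PKM, all members that rose. Over the full windows, which run from 250 bases before to 50 after the start, 22 windows of 9 members were searched on both strands, and SLC2A3 had none in the table. ACGTG counted 5 times in the first of 2 LDHA windows, since each CACGTG counts on both strands, and 3 times in PGK1. It was found 2 and 4 times in the 2 HK2 windows and 1, 2 and 1 times in the 3 ALDOA windows, both genes that fell, and in 1 of the 4 windows of PFKP, which rose. It was not found in ENO1, SLC2A1, PKM, the second LDHA window or any of the 7 HK1 windows. GCGTG was found in the full windows of SLC2A1 and PKM, 1 time each, in their last 50 bases, 3 times in 1 PFKP window and in no ALDOA window. The 2 HK2 windows held GCGTG 1 and 2 times, and HK1 windows 5 and 6 held it 1 time each. Both LDHA windows held it 1 time each, ENO1 2 times and PGK1 1 time. Among all 35116 windows of the table, 21.4% held ACGTG, 36.5% GCGTG and 7.26% CACGTG. TGACNNNGC, the core of the antioxidant response element bound by NRF2, was in 13.4% of all windows and, among the members, in the PKM window and 1 HK1 window. CACGTG was in 1 HK2 and 1 ALDOA window besides LDHA. A match is a description of letters, and binding was not measured in the RNA data.

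The other genes of the pathway were read as 8 lists of 92 genes, of which 72 passed the filter on low counts. With the inhibitor 33 were higher and 16 lower, with a median log2 fold change of 0.17 where that of all genes was 0.01. Over all genes 31.9% were higher and 30.5% lower in that comparison. Between Pt-resistant and naive cells 18 of the 72 were higher and 31 lower, against 29.8% and 29.4% of all genes, with a median of -0.09. At more than 1.2-fold these counts were 19 and 11 with the inhibitor, and 13 and 20 between Pt-resistant and naive cells.

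Among the other glycolytic enzymes, 6 of 13 tested genes were higher and 3 lower with the inhibitor (31.9% and 30.5% of all genes). ALDOC (1.62 ± 0.12), ENO2, the neuronal enolase (1.28 ± 0.14), PGAM1, a phosphoglycerate mutase (0.85 ± 0.09), and GPI, which makes fructose phosphate from glucose phosphate (0.62 ± 0.07), rose with it, each a log2 fold change with its SE. HKDC1, PFKL and PFKM were the 3 that fell. GAPDH, the oxidizing step often used as a reference gene, averaged 1597 ± 38.6 CPM in inhibitor-treated, 1606 ± 83.5 CPM in Pt-resistant and 2274 ± 120 CPM in naive cells (SD, n = 3). It did not pass with the inhibitor (-0.01 ± 0.08, adjusted p = 0.936, edgeR), a value whose sign changed when single libraries were left out, and it was lower in Pt-resistant than in naive cells (-0.50 ± 0.08, adjusted p = 6.7e-06, edgeR). TPI1, the isomerase after aldolase, passed in none of the 3 comparisons, with log2 differences of -0.10 ± 0.08 with the inhibitor and 0.13 ± 0.08 between Pt-resistant and naive cells, although the last passed without Pt-resistant replicate 1 (0.20, adjusted p = 0.0462, edgeR).

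Between Pt-resistant and naive cells 3 of these 13 enzymes were higher and 7 lower (29.8% and 29.4% of all genes). Their median log2 fold change was -0.27, against 0.01 over all genes. HKDC1, PFKM (0.41 ± 0.08) and ADPGK, an ADP-dependent glucokinase (0.24 ± 0.08), were higher, the last call being lost when replicate 1 of either the Pt-resistant or the naive group was left out (adjusted p = 0.0553 and 0.0655, edgeR). ENO3, the muscle enolase (-1.41 ± 0.21), ALDOC (-1.28 ± 0.12) and BPGM, which makes bisphosphoglycerate (-0.67 ± 0.10), were the 3 that were lowest, with GPI (-0.56 ± 0.07), GAPDH, PFKL (-0.34 ± 0.07) and PGAM1 (-0.27 ± 0.09, with groups that overlapped) also lower. Leaving out Pt-resistant replicate 1 or 3, or naive replicate 1, took the PGAM1 call away (adjusted p = 0.0564, 0.0846 and 0.12, edgeR). GAPDH has 62 named pseudogenes and PGAM1 13, so their counts may leave out reads shared with them.

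**Figure D4:**
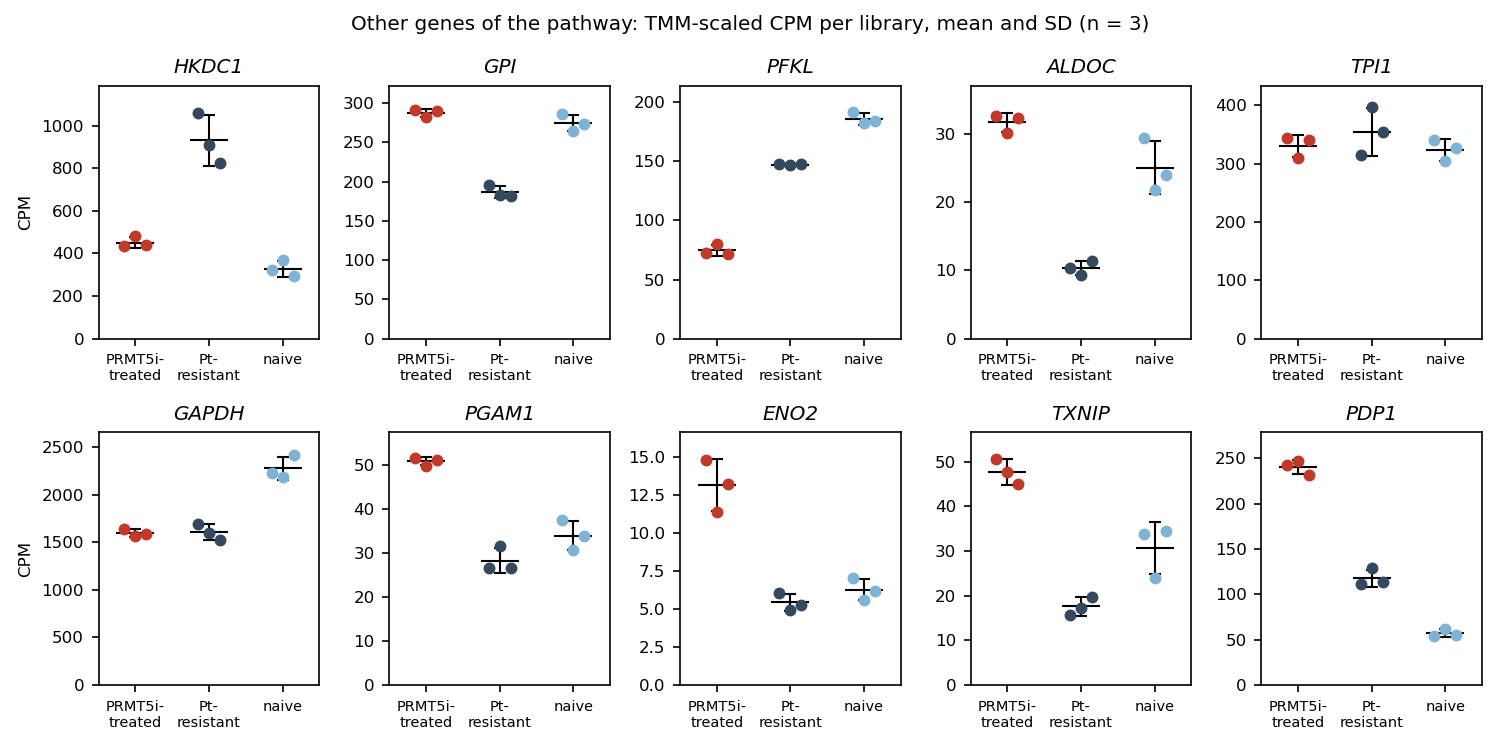
TMM-scaled CPM of 10 other genes of glucose metabolism, with 1 point per library and bars for the mean and SD of 3 libraries, in inhibitor-treated (PRMT5i-treated) Pt-resistant, Pt-resistant and naive cells. HKDC1 is highest in Pt-resistant cells and GPI and ALDOC lowest there, PFKL is lowest with the inhibitor, and TPI1 overlaps between all groups.

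Of 8 other tested transporters of the SLC2A family, 5 were higher and 1 lower with the inhibitor (31.9% and 30.5% of all genes). SLC2A12, a glucose transporter found in muscle and fat, averaged 16.7 ± 2.23 CPM in inhibitor-treated and 8.35 ± 1.84 CPM in Pt-resistant cells (SD, n = 3), a log2 fold change of 0.99 ± 0.14 (SE). SLC2A6, a lysosomal transporter, rose by 0.69 ± 0.15 (log2, SE), and SLC2A10 fell by 0.28 ± 0.10 (log2, SE). The only lower call, SLC2A10, was lost without Pt-resistant replicate 1 or inhibitor-treated replicates 1 or 3 (adjusted p = 0.0546, 0.123 and 0.0516, edgeR). The fructose transporter SLC2A5 was called higher at 3.23 ± 0.46 (log2, SE) but had few counts. These were 78 over the inhibitor-treated libraries, 9 over the Pt-resistant and 39 over the naive libraries. It passed the filter on low counts through groups where it was higher, so no weight is put on this call or its size. In Pt-resistant cells 2 were higher than in naive cells, SLC2A6 (0.59 ± 0.16) and SLC2A8 (0.48 ± 0.09), and 4 lower, among them SLC2A9 (-1.09 ± 0.17) and SLC2A10 (-0.24 ± 0.10). The other 2, SLC2A5 (-2.24 ± 0.52) and SLC2A11 (-0.93 ± 0.36), had few counts and passed the filter on them through groups where they were higher, so no weight is put on their size, with SLC2A11 at 19, 32 and 54 counts over the inhibitor-treated, Pt-resistant and naive libraries. SLC2A10 lost its call in this comparison when Pt-resistant replicate 2 or 3 or naive replicate 1 or 2 was left out (adjusted p = 0.0549 to 0.119, edgeR) and by DESeq2 (adjusted p = 0.0687). SLC2A11 lost its call without Pt-resistant replicates 1 or 2 or naive replicates 1 or 3 (adjusted p = 0.0561 to 0.107, edgeR) and by DESeq2 (adjusted p = 0.15). The count of 4 lower was 2 when Pt-resistant replicate 2 or naive replicate 1 was left out. All 8 stood below SLC2A1 per kilobase, at 0.0401 to 15.2 CPM per kilobase.

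Regulators of glycolysis were mixed. With the inhibitor 6 of 14 tested genes were higher and 2 lower (31.9% and 30.5% of all genes). TXNIP, an arrestin-family protein that holds glucose uptake down, averaged 47.7 ± 2.83 CPM in inhibitor-treated, 17.6 ± 2.05 CPM in Pt-resistant and 30.7 ± 5.82 CPM in naive cells (SD, n = 3). It rose with the inhibitor by 1.44 ± 0.12 (log2, SE; adjusted p = 2.46e-10, edgeR) and was lower in Pt-resistant than in naive cells at -0.80 ± 0.12 (SE; adjusted p = 3.52e-06, edgeR). PFKFB3 (0.58 ± 0.09) and PFKFB4 (0.77 ± 0.18), which make the fructose bisphosphate that activates phosphofructokinase, also rose with the inhibitor. The AMP-activated kinase subunits PRKAA1 (-0.42 ± 0.08) and PRKAA2 (-0.26 ± 0.11) fell, and the PRKAA2 call was lost without Pt-resistant replicate 1 or inhibitor-treated replicates 1 or 3 (adjusted p = 0.24, 0.152 and 0.166, edgeR).

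HIF1A, the oxygen-regulated subunit of HIF-1, averaged 881 ± 59.3 CPM in inhibitor-treated, 761 ± 71.4 CPM in Pt-resistant and 492 ± 36.1 CPM in naive cells (SD, n = 3). It was higher in Pt-resistant than in naive cells at 0.63 ± 0.08 (log2, SE; adjusted p = 9.31e-07, edgeR) and with the inhibitor at 0.21 ± 0.08 (log2, SE; adjusted p = 0.032, edgeR), the last with groups that overlapped. ARRDC4, a relative of TXNIP, was also higher in Pt-resistant than in naive cells (1.51 ± 0.20), and 5 of the 14 were lower, led by PFKFB4 (-1.21 ± 0.17), PRKAA2 (-0.99 ± 0.10) and TXNIP.

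Lactate leaves and enters cells through monocarboxylate transporters, and all 5 tested genes of this list passed in both comparisons, where 62.4% (inhibitor) and 59.1% (Pt-resistant against naive) of all genes did. SLC16A1, which encodes MCT1, fell with the inhibitor at -0.65 ± 0.12 (log2, SE) and was higher in Pt-resistant than in naive cells at 0.75 ± 0.12. SLC16A3, which encodes the exporter MCT4, was higher with the inhibitor at 0.30 ± 0.08 and lower in Pt-resistant than in naive cells at -0.74 ± 0.08. SLC16A7, which encodes MCT2, averaged 35.5 ± 3.96 CPM in inhibitor-treated, 17.6 ± 0.843 CPM in Pt-resistant and 11.4 ± 1.12 CPM in naive cells (SD, n = 3), higher in both comparisons (1.01 ± 0.10 and 0.63 ± 0.11, log2, SE). The chaperones of these transporters, BSG (0.56 ± 0.07 and 0.27 ± 0.07) and EMB (0.88 ± 0.14 and 1.69 ± 0.18), were higher in both as well.

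Of 14 tested genes for the entry of pyruvate into mitochondria, 8 were higher and 3 lower with the inhibitor. In Pt-resistant cells 3 were higher and 8 lower than in naive cells. Over all genes 31.9% were higher and 30.5% lower with the inhibitor, and 29.8% and 29.4% between Pt-resistant and naive cells. Both comparisons use the same 3 Pt-resistant libraries. PDP1, a phosphatase that turns pyruvate dehydrogenase on, averaged 241 ± 7.60 CPM in inhibitor-treated, 118 ± 9.53 CPM in Pt-resistant and 57.0 ± 4.39 CPM in naive cells (SD, n = 3). It was 2.04-fold higher with the inhibitor (adjusted p = 1.17e-10, edgeR) and 2.07-fold higher in Pt-resistant than in naive cells (adjusted p = 1.56e-10, edgeR). Of the 4 pyruvate dehydrogenase kinases, which turn the complex off, 3 rose with the inhibitor, PDK4 (1.10 ± 0.12), PDK3 (0.94 ± 0.13) and PDK2 (0.44 ± 0.10), and PDK1 fell (-0.70 ± 0.09). PDK2 was added after its values were seen, so that the family is given whole. PDP2 (-0.47 ± 0.08) and the dehydrogenase subunit PDHA1 (-0.19 ± 0.08) fell as well, and the PDHA1 call was lost without any of 5 libraries (Pt-resistant replicates 1 and 2 and each inhibitor-treated one, adjusted p = 0.0505 to 0.0939, edgeR). In Pt-resistant cells MPC2, a subunit of the mitochondrial pyruvate carrier (0.39 ± 0.08), and DLD (0.23 ± 0.09) were also higher, and PDK3 (-0.83 ± 0.13), PDPR (-0.65 ± 0.10) and DLAT (-0.56 ± 0.08) lower than in naive cells. DLD did not pass when Pt-resistant replicate 2 or 3, or naive replicate 1, was left out (adjusted p = 0.0857 to 0.141, edgeR).

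Of 4 tested gluconeogenesis genes, 2 fell and 1 rose with the inhibitor (30.5% and 31.9% of all genes). PCK2, the mitochondrial phosphoenolpyruvate carboxykinase, averaged 3.37 ± 0.521 CPM in inhibitor-treated and 11.9 ± 1.54 CPM in Pt-resistant cells (SD, n = 3), 3.54-fold lower (adjusted p = 3.97e-10, edgeR). G6PC3, a glucose phosphatase, fell by 1.07 ± 0.09 (log2, SE) and PC, pyruvate carboxylase, rose by 0.31 ± 0.10, a call lost without inhibitor-treated replicate 3 (adjusted p = 0.0803, edgeR). SLC37A4, the glucose phosphate carrier, differed by 0.04 ± 0.19 and did not pass. Pt-resistant cells had less SLC37A4 (-1.30 ± 0.17), PC (-0.51 ± 0.10) and G6PC3 (-0.21 ± 0.09) than naive cells, and PCK2 (0.12 ± 0.13) did not pass. The G6PC3 call in that comparison was lost without any single naive or Pt-resistant library or inhibitor-treated replicate 2 (adjusted p = 0.054 to 0.101, edgeR).

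Of 10 tested glycogen genes, 2 were higher and 3 lower with the inhibitor (31.9% and 30.5% of all genes). PGM1, a phosphoglucomutase (0.44 ± 0.08), and GYG1, glycogenin (0.38 ± 0.08), rose, and PHKB, a phosphorylase kinase subunit (-0.69 ± 0.09), the phosphorylase PYGB (-0.54 ± 0.07) and the branching enzyme GBE1 (-0.48 ± 0.08) fell. Pt-resistant cells had more GBE1 (0.83 ± 0.08) and PYGB (0.42 ± 0.07) than naive cells and less PGM1 (-0.39 ± 0.08) and synthase GYS1 (-0.31 ± 0.10), the last call being lost without Pt-resistant replicate 2 (adjusted p = 0.0743, edgeR). Splicing factors known to choose between PKM1 and PKM2 had a median absolute log2 fold change of 0.20 with the inhibitor. Between Pt-resistant and naive cells it was 0.24. Over all genes these medians were 0.43 and 0.39. With the inhibitor HNRNPA1 rose by 0.29 ± 0.08 and SRSF3 fell by 0.24 ± 0.09, while PTBP1 (0.05 ± 0.08) and HNRNPA2B1 (0.17 ± 0.08) did not pass. Between Pt-resistant and naive cells SRSF3 (0.39 ± 0.09) and PTBP1 (0.21 ± 0.09) were higher, HNRNPA1 (-0.26 ± 0.08) was lower and HNRNPA2B1 (0.15 ± 0.08) did not pass. Several of these calls rested on single libraries. SRSF3 with the inhibitor was lost without Pt-resistant replicates 2 or 3 or inhibitor-treated replicate 2 (adjusted p = 0.166, 0.0679 and 0.14, edgeR). PTBP1 in Pt-resistant cells was lost without replicate 1 or 3 of either group (adjusted p = 0.059 to 0.344, edgeR), and HNRNPA2B1 passed there without naive replicate 1 (adjusted p = 0.0238, edgeR).

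**Figure D5:**
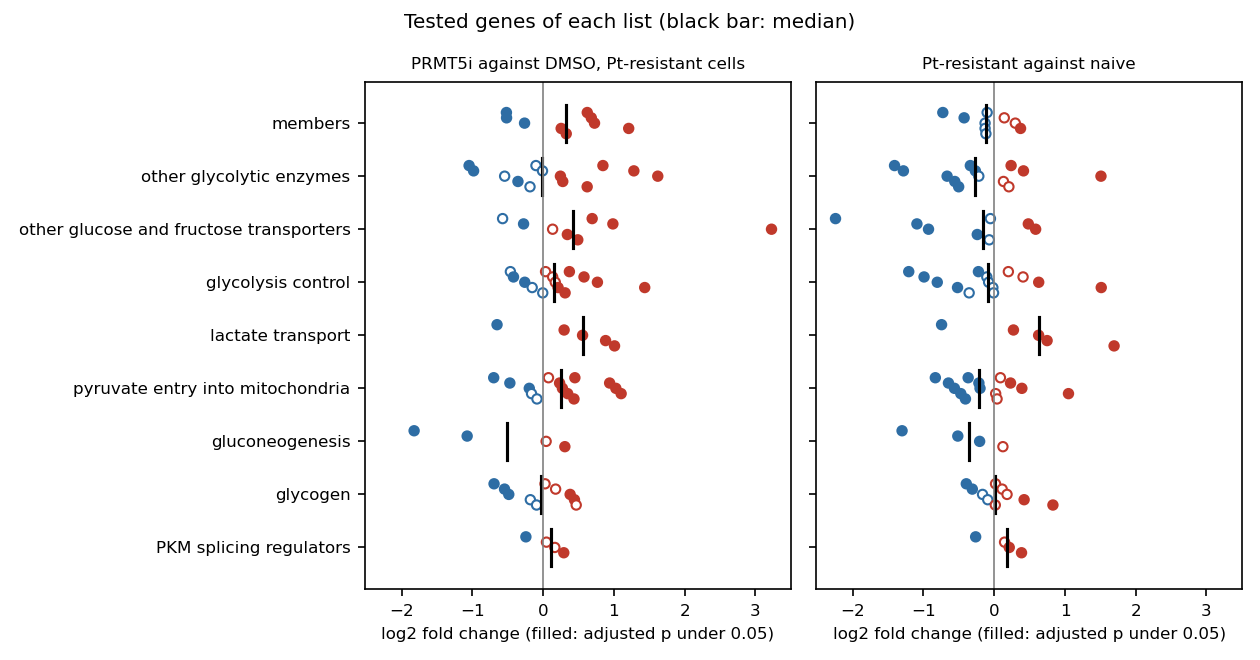
Log2 fold change of each tested gene, by list (rows), for inhibitor over DMSO in Pt-resistant cells and for Pt-resistant over naive cells, with genes past the test filled, red above and blue below 0, and the list's median as a black bar. All 9 members are filled in the inhibitor comparison, and lactate transport has the highest median of the lists in both, at 0.56 and 0.63.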

How the data were processed

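RNA from wells plated in triplicate was made into strand-specific libraries. Per the labels and the study's methods, reads were checked with FastQC and aligned with STAR in its gene counting mode, which skips reads with several alignments or more than 1 overlapping gene. The values deposited by the authors are raw whole-number counts per gene, not normalized. The genome build, the annotation and the strand column used are not stated.

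Counts were analyzed in R 4.3.3 with edgeR 4.0.16. Genes passing filterByExpr (minimum count 10), 14630 of 61487, held 99.88% of counts. Libraries were scaled by TMM and all 9 libraries entered 1 quasi-likelihood fit with group as its only term, for 3 comparisons, each adjusted by Benjamini-Hochberg (threshold 0.05). The SE is the size of the log2 fold change divided by the root of F. The fit was tested on simulated data. The study used DESeq2, an alternative here (1.42.0), as were limma-voom (3.58.1), RLE scaling, library totals alone, other filters, a block for the replicate number, fits restricted to the groups compared, a minimum fold and each library left out. Symbols came from a gene name table (61369 rows matched), and transcript lengths, exon overlaps and named pseudogenes from GENCODE 29 (58312 matched). The biological coefficient of variation was 7.66%, and the totals set the counting precision. The SE includes the spread between wells, the SD is that spread over 3 libraries, and the floor of 3 counts covers counting error only.

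Named genes are the 10 members, up to 3 genes of largest fold per direction, list and comparison, every gene of lists with at most 5 tested genes, and GAPDH, LDHB, PFKL, GPI, TPI1 and PGAM1. Other genes named for a single value were chosen after their values were seen. Members, lists and rules were chosen with earlier results of these data known.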

Additional observations from a re-analysis of the deposited data

How the results depend on the processing

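Most results kept their direction and their side of the threshold. Among the member fold changes, 476 values under alternatives did so, 7 lost their call, 2 gained one and 1, of an uncalled value, changed sign. Of the other named fold changes, 2579 values kept both, 92 lost their call, 7 gained one and 14 changed sign. Requiring more than 1.2-fold gave 2855 genes higher between Pt-resistant and naive cells (4357 without it), 0 members higher, and 20 other glucose metabolism genes lower. With the inhibitor it gave 1 member lower and 19 other genes higher. A stricter threshold passes fewer genes by construction. Leaving out single libraries gave 1 to 2 members higher between Pt-resistant and naive cells, and HK2 between -0.33 and -0.17 (log2) with the inhibitor. Outside mitochondrial genes the summed members differed by 0.15 percentage points with the inhibitor (0.12 in all counts).

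Sign changes, all of values that did not pass, came with library totals alone or without single libraries. For inhibitor against DMSO, leaving out single libraries gave GAPDH between -0.047 and 0.035, SLC37A4 between -0.12 and 0.21 and PTBP1 between -0.040 and 0.16. For Pt-resistant against naive cells it gave PDK2 between -0.046 and 0.11 (-0.0063 with library totals alone). For inhibitor-treated against naive cells it gave ALDOA between -0.37 and 0.11 (0.11 without naive replicate 1), TPI1 between -0.019 and 0.079 and HNRNPA1 between -0.042 and 0.073, where library totals alone gave -0.029 for TPI1 and -0.029 for HNRNPA1. The cause was not tested.

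Replicate numbers did not pair the libraries, as correlations of deviations between same-numbered libraries ran from -0.22 to 0.18. With the replicate number as a block, 6 members were higher and 3 lower with the inhibitor, 1 and 2 between Pt-resistant and naive cells, and 4 and 1 between inhibitor-treated and naive cells, as without it. SLC2A3 was too low to test at this depth, and 3 libraries per group cannot bring an exact permutation p below 0.1.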
